A study of Mus musculus with 19 samples.

Results

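Interleukin-2 (IL-2) changes the transcripts of natural killer (NK) cells through the kinases JAK1 and JAK3, and the comparison described here asks what a JAK1 inhibitor at 1 and 4 µM did to that response. Its members were chosen by their titles: 2 samples with inhibitor 3404 at 1 µM and 1 sample at 4 µM, pooled, against 4 samples with IL-2 and no inhibitor code. These are 7 of the 19 samples of the series, each hybridised to 1 Affymetrix Mouse Gene 1.0 ST array. All cells came from the spleens of male C57BL/6 mice aged 6 weeks, were enriched by negative selection, and carry NK1.1 as the labelled marker. All 7 samples received IL-2 at 250 U/ml, for 8 h per the series text. Inhibitor 3404 is known only by this code, and 6226 is the code of the JAK3 inhibitor. Other groups used for comparison were JAK1 inhibitor 0.25 µM with IL-2 (2 samples), JAK3 inhibitor at 1 and 4 µM with IL-2 (2 samples each), and untreated cells without IL-2 (3 samples, labelled 8 h for 2 of them and with no culture time for the third). No label tells whether replicates are separate animals, separate cultures or repeats of one, so the p-values speak of the scatter among these arrays, part or all of which may be technical.

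IL-2 signals through a receptor whose beta chain carries JAK1 and whose common gamma chain carries JAK3, with an alpha chain that raises affinity. The kinases phosphorylate STAT5, which enters the nucleus and turns on genes for growth, survival, cytotoxic granules and feedback inhibitors of the SOCS family. JAK1 is also a kinase of the receptors for type I interferons and for interferon-gamma, which act on genes with interferon-stimulated response elements (ISRE) and gamma-activated sites (GAS). In NK cells IL-2 is known to raise killing capacity and cytokine release.

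The deposited intensities lie on 2 scales, and every comparison was made with a term for the scale. The high-intensity set holds IL-2 replicates 1 and 2 and 1 µM replicate 1, with sample medians between 7.49 and 7.59 on the log2 scale over its 7 samples of the series. The low-intensity set holds IL-2 replicates 3 and 4, 1 µM replicate 2 and the 4 µM sample, with medians between 5.70 and 5.90 over its 12 samples. The sets differed by a median of 1.66 on the log2 scale (SD 0.37 over 19752 genes), so levels are given below set by set. They also differed in repeated values: 19.98% of probe sets had a value shared by 3 samples in the high-intensity set, and 0% in the low-intensity set. The sets thus differ in more than an offset. How far shared values affect the sizes of changes within the high-intensity set was not tested. Differences are log2 changes from limma's fit over all 19 samples, with a standard error (SE), and the Benjamini-Hochberg adjusted p covers all 19752 genes. A gene is said to have risen or fallen where that adjusted p is under 0.05. The number of arrays, 3 against 4, limits the precision of each value.

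At 1 and 4 µM the JAK1 inhibitor changed 1375 of 19752 genes (6.96%) relative to IL-2 alone, of which 672 rose (3.40%) and 703 fell (3.56%). At least 2-fold changes passed the test for 139 genes that rose (0.704%) and 227 that fell (1.15%). The largest falls were in interferon-induced genes, in granzyme B and in interferon-gamma, and the largest rises included C-type lectin genes of the Clec4 family, Adgre4 and Vcan. The median log2 change of all genes was 0.02. Within the low-intensity set alone 594 genes passed, 189 that rose and 405 that fell, and within the high-intensity set, where limma had 1 residual degree of freedom, 0 did (994 at an unadjusted p under 0.05). With no term for the scale 15 genes passed, all of them falls. Fitted apart against the same 4 IL-2 samples, the 1 µM samples gave 1019 calls (5.16%) and the single 4 µM sample gave 745 (3.77%).

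Of the 12 largest falls, Cxcl9 and Cxcl10 encode chemokines that attract CXCR3-bearing lymphocytes, Gzmb encodes the death-inducing protease granzyme B, and Ifng encodes interferon-gamma. The others are interferon-induced: Ifit1 and Ifit3 (antiviral proteins of the tetratricopeptide family), Slfn5 (a Schlafen protein), Rtp4, Usp18 (which removes ISG15 and dampens interferon receptor signalling), Iigp1 (a GTPase that attacks parasite vacuoles), Oasl2 and Zbp1 (a nucleic acid sensor that can trigger cell death). Cxcl9 had log2 levels of 12.52 and 12.40 with IL-2 alone and 8.82 with 1 µM inhibitor in the high-intensity set, and of 10.97 and 10.72 with IL-2 alone, 6.24 with 1 µM and 5.37 with 4 µM in the low-intensity set. The 3 inhibitor samples lay far below the IL-2 samples of their set, and the 4 µM sample was the lowest of all. Cxcl9 changed by -4.48 ± 0.27 (SE, adjusted p = 7.50e-10) in log2, a 22.3-fold lower level. Gzmb had log2 levels of 13.40 and 13.44 with IL-2 alone and 10.95 with 1 µM inhibitor in the high-intensity set, and of 12.17 and 12.03 with IL-2 alone, 7.22 with 1 µM and 6.89 with 4 µM in the low-intensity set. No inhibitor sample reached the IL-2 range, and 1 µM replicate 1 kept the most granzyme B transcript relative to its set. Gzmb changed by -4.06 ± 0.37 (SE, adjusted p = 1.91e-07) in log2, with -2.46 within the high-intensity set and -5.05 within the low-intensity set. All 12 falls were larger within the low-intensity set (3.30 to 5.05) than within the high-intensity set (2.14 to 3.93), a difference that was not tested. Sizes over both sets ran from 3.21 to 4.48 in log2, with adjusted p from 1.93e-10 to 3.08e-07. In these 12 genes the inhibitor samples did not overlap the IL-2 samples in either set, which held for 8.61% of all genes in this direction. The genes were picked for their falls in the same samples, so the lack of overlap is no separate support.

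**Figure D1:**
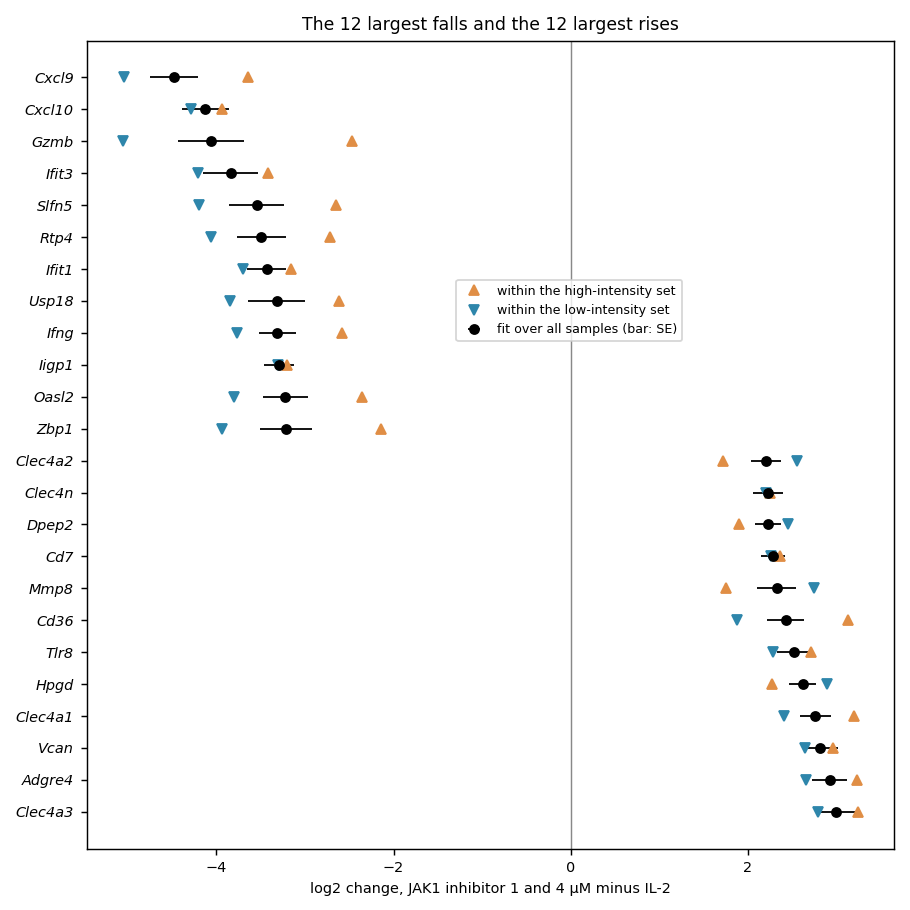
Log2 change of the JAK1 inhibitor at 1 and 4 µM minus IL-2 (x axis) for the 12 genes with the largest falls and the 12 with the largest rises (y axis); black points are the fit over all samples with bars of 1 SE, and triangles are the change within the high-intensity and the low-intensity set. Every fall is larger in the low-intensity set, while 4 of the 12 rises are.

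Among the 12 largest rises, Clec4a1, Clec4a2, Clec4a3 and Clec4n encode C-type lectin receptors of myeloid cells, and Adgre4 is an adhesion receptor of the same cells. Vcan encodes versican, a matrix proteoglycan made by monocytes. Hpgd degrades prostaglandins, Tlr8 is an endosomal RNA sensor, Cd36 is a scavenger receptor, Mmp8 is the neutrophil collagenase, Dpep2 is a dipeptidase and Cd7 is a lymphoid surface protein. Adgre4 stood at log2 levels of 6.32 and 5.95 against 9.37 in the high-intensity set and 3.97 and 4.39 against 6.97 (1 µM) and 6.71 (4 µM) in the low-intensity set (IL-2 alone against inhibitor). All 3 inhibitor samples were above the IL-2 samples of their set, and the dose made no visible step. Its log2 change was 2.92 ± 0.19 (SE, adjusted p = 2.20e-09), a 7.58-fold higher level. Cd7 stood at 9.24 and 9.31 against 11.63 in the high-intensity set and 8.04 and 7.86 against 10.21 (1 µM) and 10.19 (4 µM) in the low-intensity set in log2 level. The IL-2 samples were low and close together, and every inhibitor sample was high. The log2 change of Cd7 was 2.28 ± 0.14 (SE, adjusted p = 7.50e-10), with 2.36 within the high-intensity set. The 12 rises spanned 2.20 to 3.00 in log2, with adjusted p from 7.50e-10 to 2.67e-07. In these 12 genes the inhibitor samples did not overlap the IL-2 samples in either set, which held for 12.3% of all genes in this direction. As with the falls, the choice of genes by size in the same samples makes this no separate support. The macrophage and monocyte marker list moved the same way, with 7 of 13 members higher, and its part in these rises was not tested.

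For the receptor and its kinases, 3 of 17 measured genes fell and 1 rose, with a list median of 0.02. Of all genes 3.56% fell and 3.40% rose, and these shares stand beside the list counts below as well. A list in which 1 member rose is not read as a list that rose. Il2ra, the alpha chain that IL-2 itself induces, had log2 levels of 10.86 and 11.03 with IL-2 alone and 8.75 with 1 µM inhibitor in the high-intensity set, and of 9.82 and 9.48 with IL-2 alone, 7.81 with 1 µM and 7.52 with 4 µM in the low-intensity set. IL-2 samples were high in both sets and the inhibitor samples were low, with little between 1 and 4 µM. Il2ra changed by -2.04 ± 0.18 (SE, adjusted p = 9.57e-08) in log2. Il2rb, the beta chain to which JAK1 binds, stood at 12.83 and 12.95 against 12.38 in the high-intensity set and 11.46 and 11.39 against 10.01 (1 µM) and 10.36 (4 µM) in the low-intensity set in log2 level, so the groups did not overlap and the fall was smaller in the high-intensity set. The fitted log2 change was -0.94 ± 0.16 (SE, adjusted p = 0.000418). Stat2, a part of the interferon-induced factor ISGF3, fell too, with a log2 change of -1.58 ± 0.24 (SE, adjusted p = 0.000130). Jak1, the gene of the targeted kinase, was the 1 member that rose, at 0.46 ± 0.12 (SE, adjusted p = 0.0167), a call that was lost without IL-2 replicate 3, 1 µM replicate 1 or the 4 µM sample (adjusted p from 0.0503 to 0.0999). Its level was 11.69 and 11.78 against 12.27 in the high-intensity set and 10.36 and 10.41 against 10.75 (1 µM) and 10.84 (4 µM) in the low-intensity set in log2. Stat5a (0.17, adjusted p = 0.853), Stat5b (0.51, adjusted p = 0.0932) and Jak2 (-0.01, adjusted p = 0.998) did not pass the test in log2 change.

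Of 20 measured feedback inhibitors of cytokine signalling 6 fell and 2 rose, beside 3.56% and 3.40% of all genes, with a median log2 change of -0.25. Socs1, which binds and blocks JAK kinases, had log2 levels of 10.68 and 10.79 with IL-2 alone and 8.38 with 1 µM inhibitor in the high-intensity set, and of 9.15 and 9.39 with IL-2 alone, 6.70 with 1 µM and 6.56 with 4 µM in the low-intensity set. All 3 inhibitor samples were well below the IL-2 samples of their set, at nearly the same distance. Socs1 changed by -2.53 ± 0.14 (SE, adjusted p = 3.01e-10) in log2, with close values within the high-intensity set (-2.36) and the low-intensity set (-2.64). Cish, an immediate STAT5 target that limits IL-2 receptor signalling, had log2 levels of 9.15 and 9.41 with IL-2 alone and 7.90 with 1 µM inhibitor in the high-intensity set, and of 8.08 and 7.82 with IL-2 alone, 5.96 with 1 µM and 5.38 with 4 µM in the low-intensity set. The 4 µM sample was the lowest of its set, and the groups did not overlap in either set. The log2 change of Cish was -1.92 ± 0.17 (SE, adjusted p = 1.11e-07). Usp18 (-3.32), Socs3 (-0.66, adjusted p = 0.00598), Spry2 (-0.65) and Socs2 (-0.51, adjusted p = 0.0421) were the other members that fell, in log2 change. The call of Socs2 was lost without IL-2 replicate 2, IL-2 replicate 3, IL-2 replicate 4, 1 µM replicate 1, 1 µM replicate 2 or the 4 µM sample (adjusted p from 0.0904 to 0.184), and that of Spry2 without IL-2 replicate 2, IL-2 replicate 3, IL-2 replicate 4, 1 µM replicate 2 or the 4 µM sample (adjusted p from 0.0717 to 0.235). Tnfaip3 (0.59), which restrains NF-kappaB, and Dusp1 (0.68), a MAP kinase phosphatase, were the members that rose. The call of Tnfaip3 was lost without IL-2 replicate 1, IL-2 replicate 2, IL-2 replicate 4, 1 µM replicate 1, 1 µM replicate 2 or the 4 µM sample (adjusted p from 0.0577 to 0.0996), and that of Dusp1 without 1 µM replicate 1 or 1 µM replicate 2 (adjusted p from 0.0592 to 0.0770).

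The promoters of Cish and Socs1 are shown because these feedback genes hold a motif of STAT-driven promoters between 250 bases before and 50 bases after the gene start (RefSeq, build GRCm38.p6, printed in the direction of the gene). Capitals mark matches on either strand to the GAS motif TTCNNNGAA in Cish (chr9:107296409-107296708, plus strand), the first beginning at the gene start and the other 11 bases after it. In Socs1 (chr16:10785487-10785786, minus strand) capitals mark 2 overlapping matches to the ISRE motif (GAAA, any 2 bases, GAAA), beginning 83 and 77 bases before the start.
Cish: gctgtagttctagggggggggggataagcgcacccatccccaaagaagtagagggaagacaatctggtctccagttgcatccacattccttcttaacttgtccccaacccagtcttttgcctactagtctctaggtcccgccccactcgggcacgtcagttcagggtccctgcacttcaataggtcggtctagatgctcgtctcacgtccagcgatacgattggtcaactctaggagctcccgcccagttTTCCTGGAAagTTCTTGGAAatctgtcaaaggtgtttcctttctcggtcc
Socs1: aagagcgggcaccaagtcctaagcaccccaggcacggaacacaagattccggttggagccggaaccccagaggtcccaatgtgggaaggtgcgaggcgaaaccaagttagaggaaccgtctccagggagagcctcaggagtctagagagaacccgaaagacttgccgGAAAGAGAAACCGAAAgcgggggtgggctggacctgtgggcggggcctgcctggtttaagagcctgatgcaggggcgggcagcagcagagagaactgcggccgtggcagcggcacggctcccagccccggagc
Of 32851 such promoter windows, 8.30% held the GAS motif and 3.44% the ISRE motif. Among the list of IL-2 and STAT5 targets, 9 of the 32 genes with a window held the GAS motif (28.1%) and 1 held the ISRE motif (3.13%), beside 8.95% and 3.88% of the 15483 genes tested that had a window. A match describes the letters of a window and not a bound site.

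Targets of IL-2 and STAT5 fell as a group: 29 of 40 measured members fell, 0 rose, and the median log2 change was -1.0, against 0.02 for all genes. The list was written with earlier results of these data known. Tnfrsf9, which encodes the costimulatory receptor 4-1BB, stood at log2 levels of 11.78 and 12.10 against 10.09 in the high-intensity set and 11.06 and 10.98 against 7.81 (1 µM) and 7.39 (4 µM) in the low-intensity set. The IL-2 samples of each set stood together, and the 4 µM sample was the lowest of its set. Its log2 change was -2.81 ± 0.22 (SE, adjusted p = 2.37e-08). Ifng stood at 11.09 and 11.08 against 8.50 in the high-intensity set and 10.27 and 9.90 against 6.64 (1 µM) and 5.99 (4 µM) in the low-intensity set in log2 level, with all inhibitor samples below all IL-2 samples of their set, and its log2 change was -3.31 ± 0.21 (SE, adjusted p = 9.76e-10). Myc, the growth regulator, had log2 levels of 10.81 and 11.06 with IL-2 alone and 9.41 with 1 µM inhibitor in the high-intensity set, and of 9.79 and 9.75 with IL-2 alone, 7.89 with 1 µM and 7.45 with 4 µM in the low-intensity set. Inhibitor samples were low in both sets, and the log2 change was -1.88 ± 0.20 (SE, adjusted p = 1.35e-06). Ccnd2, a cyclin of the G1 phase, changed by -2.35 ± 0.21 (SE, adjusted p = 1.45e-07), and Osm, a cytokine of the IL-6 family, by -1.54 ± 0.13 (SE, adjusted p = 4.20e-08) in log2. Pim1, a survival kinase, had log2 levels of 10.61 and 11.40 against 10.55 in the high-intensity set and 9.48 and 9.70 against 8.79 (1 µM) and 8.49 (4 µM) in the low-intensity set, and 1 µM replicate 1 was just below the lower IL-2 sample of its set. Pim1 changed by -0.75 ± 0.20 (SE, adjusted p = 0.0210) in log2, a call lost without IL-2 replicate 2, IL-2 replicate 3, IL-2 replicate 4, 1 µM replicate 2 or the 4 µM sample (adjusted p from 0.0629 to 0.131). Cd83 (0.01), Irf4 (0.02) and Mcl1 (-0.01) were members with log2 changes near 0. In bulk samples such as these, fewer cells of a type and less RNA per cell cannot be told apart.

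**Figure D2:**
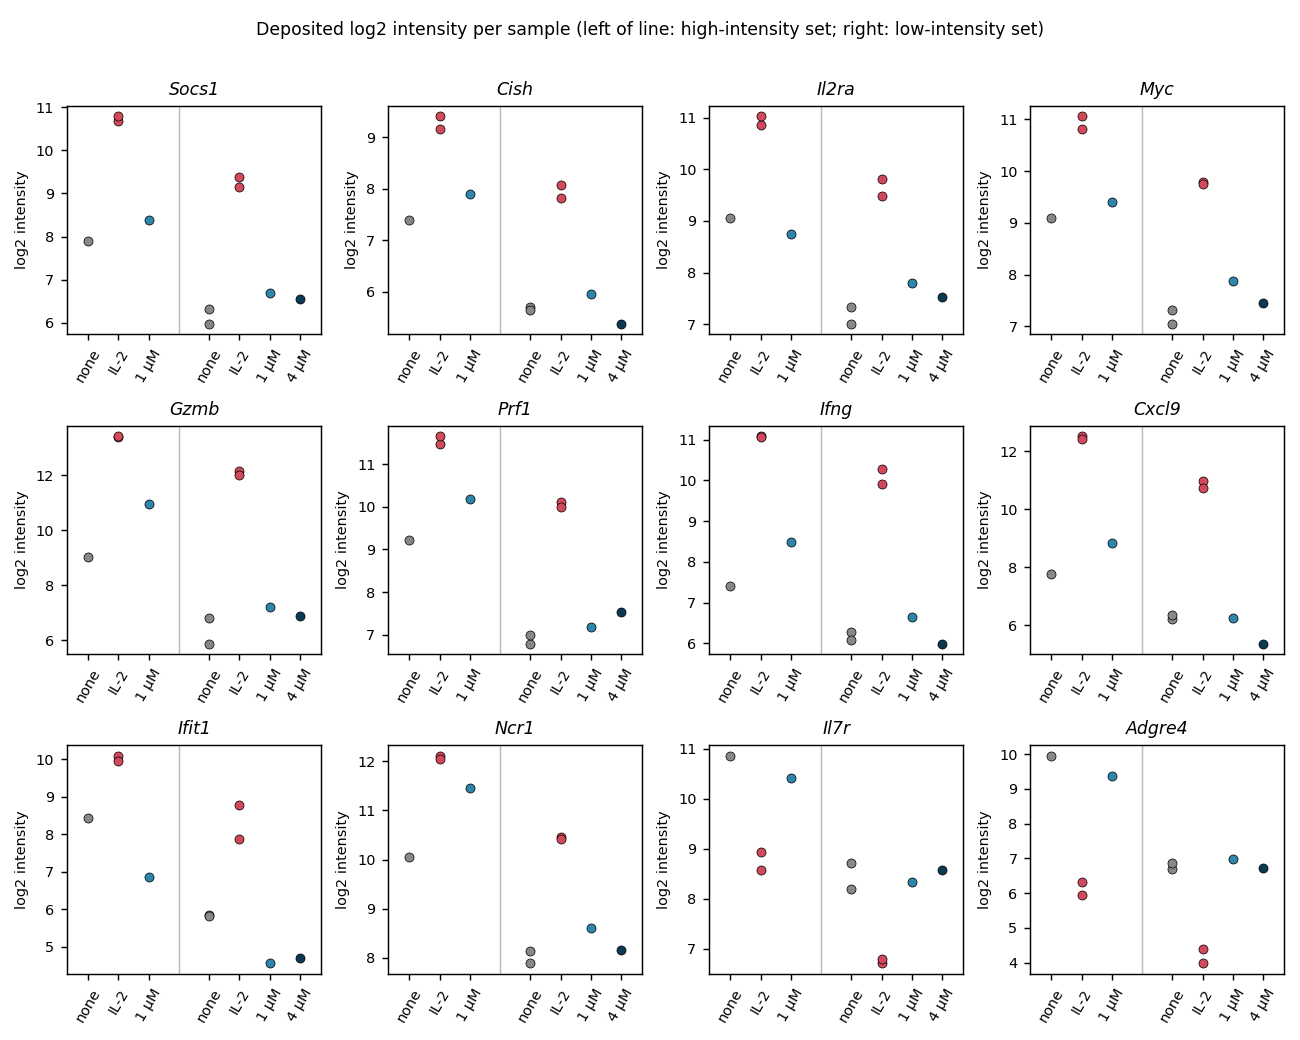
Deposited log2 intensity (y axis) of 12 genes in each sample without IL-2 (none), with IL-2, and with IL-2 and the JAK1 inhibitor at 1 or 4 µM (x axis); each point is 1 sample, with the high-intensity set left of the grey line and the low-intensity set right of it. In Socs1, Cish, Il2ra, Myc, Gzmb, Prf1, Ifng, Cxcl9, Ifit1 and Ncr1 the inhibitor samples lie below the IL-2 samples of their set, and in Il7r and Adgre4 they lie above.

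Interferon-stimulated genes had the lowest median of the 26 lists of response genes. Of 37 measured members of the type I interferon list, 36 fell and 0 rose, with a median log2 change of -2.01 and a range from -3.84 to -0.21. The exception was Trim25, a ubiquitin ligase of the RNA-sensing pathway, at -0.21 ± 0.18 (SE, adjusted p = 0.775). Ifit1 had log2 levels of 10.09 and 9.95 with IL-2 alone and 6.86 with 1 µM inhibitor in the high-intensity set, and of 8.78 and 7.87 with IL-2 alone, 4.55 with 1 µM and 4.71 with 4 µM in the low-intensity set. IL-2 replicate 3 was nearly a whole log2 unit above replicate 4, and the inhibitor samples were still more than 3 units below both. Ifit1 changed by -3.43 ± 0.22 (SE, adjusted p = 1.21e-09) in log2. Ifit3 had log2 levels of 10.92 and 10.78 with IL-2 alone and 7.43 with 1 µM inhibitor in the high-intensity set, and of 10.15 and 9.27 with IL-2 alone, 5.73 with 1 µM and 5.28 with 4 µM in the low-intensity set. The IL-2 samples of the low-intensity set again differed by close to a unit, and the inhibitor samples were far below. Its log2 change was -3.84 ± 0.31 (SE, adjusted p = 3.27e-08), -3.42 within the high-intensity set and -4.20 within the low-intensity set. Among the sensors and effectors, Oas2, which makes the signal for RNase L, stood at 9.66 and 9.78 against 7.41 in the high-intensity set and 8.58 and 7.99 against 5.39 (1 µM) and 5.04 (4 µM) in the low-intensity set in log2 level and changed by -2.75 ± 0.21 (SE, adjusted p = 2.37e-08). Rtp4 stood at 10.12 and 10.18 against 7.43 in the high-intensity set and 9.18 and 8.77 against 5.19 (1 µM) and 4.64 (4 µM) in the low-intensity set and changed by -3.49 ± 0.28 (SE, adjusted p = 2.94e-08). All 3 inhibitor samples of both genes were below the IL-2 samples of their set. Slfn5 (-3.55), Oasl2 (-3.22) and Zbp1 (-3.21) fell by similar log2 amounts, and Bst2, the virus-tethering protein, by less, with -0.92 ± 0.17 (SE, adjusted p = 0.00112). The list median was -1.48 within the high-intensity set and -2.32 within the low-intensity set.

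The promoters of Ifit1, Ifit3 and Cxcl10, which were among the 12 largest falls, hold the ISRE motif on one or the other strand, marked in capitals (RefSeq, GRCm38.p6, 250 bases before to 50 after the gene start). In Ifit1 (chr19:34640639-34640938, plus strand) the matches begin 104 and 85 bases before the start, in Ifit3 (chr19:34583279-34583578, plus strand) 156 and 122 bases before it, and in Cxcl10 (chr5:92348840-92349139, minus strand) 213 bases before it.
Ifit1: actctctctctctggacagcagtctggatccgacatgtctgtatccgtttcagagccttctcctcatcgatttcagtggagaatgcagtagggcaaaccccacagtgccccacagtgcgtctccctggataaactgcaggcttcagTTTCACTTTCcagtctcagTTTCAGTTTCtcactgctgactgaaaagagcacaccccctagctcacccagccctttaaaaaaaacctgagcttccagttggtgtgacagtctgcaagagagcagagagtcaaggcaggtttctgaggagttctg
Ifit3: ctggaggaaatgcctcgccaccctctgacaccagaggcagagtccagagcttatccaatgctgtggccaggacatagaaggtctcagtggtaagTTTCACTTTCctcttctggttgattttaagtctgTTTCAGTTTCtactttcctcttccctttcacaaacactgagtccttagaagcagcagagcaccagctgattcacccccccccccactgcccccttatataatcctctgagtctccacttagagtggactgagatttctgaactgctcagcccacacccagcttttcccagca
Cxcl10: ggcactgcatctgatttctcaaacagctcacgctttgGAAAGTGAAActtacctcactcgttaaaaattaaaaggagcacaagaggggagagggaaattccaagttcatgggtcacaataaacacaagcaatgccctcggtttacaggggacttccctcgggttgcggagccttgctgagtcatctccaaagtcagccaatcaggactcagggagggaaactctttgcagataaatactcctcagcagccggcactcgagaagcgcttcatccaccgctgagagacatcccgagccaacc
Of the type I interferon list, 27 genes had a window and 13 of these held the ISRE motif (48.1%), beside 3.88% of the 15483 genes tested that had a window. Of the interferon-gamma list, 6 of 14 genes with a window held it (42.9%). Among the 12 largest falls, 4 of 8 genes with a window held it, and among the 12 largest rises 0 of 9.

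Genes of the interferon-gamma response fell as well: 21 of 23 measured members fell and 0 rose, with a median log2 change of -1.47. Cxcl10 had log2 levels of 11.77 and 11.73 with IL-2 alone and 7.82 with 1 µM inhibitor in the high-intensity set, and of 10.19 and 9.47 with IL-2 alone, 5.45 with 1 µM and 5.64 with 4 µM in the low-intensity set. In the low-intensity set it was similarly low at both doses, and the groups did not overlap. Cxcl10 changed by -4.12 ± 0.26 (SE, adjusted p = 1.21e-09) in log2, a 17.4-fold lower level. Iigp1 stood at log2 levels of 9.05 and 9.76 against 6.20 in the high-intensity set and 7.49 and 7.31 against 4.26 (1 µM) and 3.93 (4 µM) in the low-intensity set, the IL-2 samples far above the inhibitor samples, and changed by -3.29 ± 0.17 (SE, adjusted p = 1.93e-10). Other members fell less: Irf1 (-1.56), the transcription factor that relays interferon-gamma, Cd274 (-1.47), which encodes PD-L1, and the antigen-processing genes Tap1 (-0.99) and Psmb9 (-0.99). The members that did not pass were Ciita (0.14, adjusted p = 0.858), the class II transactivator, and Ido1 (-0.51, adjusted p = 0.128), a tryptophan-degrading enzyme. The median of the list was -0.84 within the high-intensity set and -1.82 within the low-intensity set.

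In the cytotoxic granule list, 12 of 24 measured members fell and 2 rose, with a median log2 change of -0.61. The list shares Gzmb with that of IL-2 and STAT5 targets. Prf1, which encodes the pore-forming protein perforin, had log2 levels of 11.46 and 11.66 with IL-2 alone and 10.18 with 1 µM inhibitor in the high-intensity set, and of 10.12 and 10.002 with IL-2 alone, 7.19 with 1 µM and 7.54 with 4 µM in the low-intensity set. The fall was larger in the low-intensity set, where 1 µM was the lower of the doses. The log2 change of Prf1 was -2.18 ± 0.23 (SE, adjusted p = 1.03e-06). Serpinb9, the inhibitor that shields killer cells from granzyme B, stood at 11.42 and 11.63 against 10.28 in the high-intensity set and 10.03 and 9.91 against 7.73 (1 µM) and 7.55 (4 µM) in the low-intensity set in log2 level, and all inhibitor samples were low. It changed by -1.90 ± 0.21 (SE, adjusted p = 2.26e-06). Nkg7, a granule membrane protein, changed by -1.66 ± 0.17 (SE, adjusted p = 8.21e-07), and granzyme A (Gzma) by -1.46 ± 0.24 (SE, adjusted p = 0.000299). The members that rose were Gzmk (1.02), the gene of granzyme K, and Lamp1 (0.63), a lysosomal membrane protein. Gzmd (-0.03) and Gzmf (0.02) gave log2 changes near 0.

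Cytokine and chemokine genes also fell: 14 of 25 measured members did so, 2 rose, and the median log2 change was -0.80. The list shares Cxcl9 with the interferon-gamma list, so the 2 counts are not separate results. Ccl4, a chemokine that attracts monocytes and lymphocytes and is released by activated NK cells, had log2 levels of 9.40 and 9.43 with IL-2 alone and 7.61 with 1 µM inhibitor in the high-intensity set, and of 8.01 and 8.08 with IL-2 alone, 5.38 with 1 µM and 4.79 with 4 µM in the low-intensity set. The 4 µM sample was the lowest, and no inhibitor sample overlapped the IL-2 samples of its set. Ccl4 changed by -2.47 ± 0.20 (SE, adjusted p = 4.12e-08) in log2. Xcl1, the chemokine that draws cross-presenting dendritic cells, stood at 11.26 and 11.31 against 9.63 in the high-intensity set and 10.51 and 10.56 against 7.52 (1 µM) and 6.80 (4 µM) in the low-intensity set in log2 level and changed by -2.69 ± 0.25 (SE, adjusted p = 2.06e-07). Its fall was -1.66 within the high-intensity set and -3.38 within the low-intensity set. Tnf changed by -0.80 ± 0.16 (SE, adjusted p = 0.00192), and Csf1, a growth factor of macrophages, by -1.58 ± 0.16 (SE, adjusted p = 9.77e-07). Il5 (-0.10, adjusted p = 0.941) did not pass the test. The members that rose were Ccl9 (1.60), a myeloid chemokine, and Ccl5 (0.46), whose call was lost without 1 µM replicate 1 or the 4 µM sample (adjusted p from 0.0543 to 0.164).

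NK receptors and the transcription factors behind them moved in both directions. Of 30 measured receptor and adaptor genes 12 fell and 2 rose (median -0.32), and of 21 transcription factors 6 fell and 1 rose (median 0.02). Beside these, 3.56% of all genes fell and 3.40% rose, so the few rises are not read as a change of either list. Ncr1, which encodes the activating receptor NKp46, had log2 levels of 12.11 and 12.04 with IL-2 alone and 11.46 with 1 µM inhibitor in the high-intensity set, and of 10.46 and 10.41 with IL-2 alone, 8.60 with 1 µM and 8.16 with 4 µM in the low-intensity set. In the high-intensity set the inhibitor sample was less than 1 unit below IL-2, and in the low-intensity set the inhibitor samples were further below. Its log2 change was -1.52 ± 0.22 (SE, adjusted p = 6.68e-05), with -0.62 and -2.05 within the sets. Sh2d1b2, an adaptor of SLAM-family receptors, stood at 9.80 and 9.46 against 7.08 in the high-intensity set and 6.85 and 5.92 against 3.60 (1 µM) and 3.69 (4 µM) in the low-intensity set in log2 level and changed by -2.64 ± 0.22 (SE, adjusted p = 6.05e-08). Cd244a, the SLAM-family receptor 2B4, changed by -1.30 ± 0.17 (SE, adjusted p = 2.41e-05). The receptor genes that rose were Cd7, described above, and Fcgr3 (0.78 ± 0.21 SE, adjusted p = 0.0284), the low-affinity IgG receptor CD16, whose call was lost without IL-2 replicate 1, IL-2 replicate 3, IL-2 replicate 4, 1 µM replicate 1 or the 4 µM sample (adjusted p from 0.0726 to 0.231). Klrg1 (-0.45) and Hcst (-0.02) did not pass.

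Among the factors, Tbx21, which encodes T-bet, had log2 levels of 10.66 and 10.91 with IL-2 alone and 10.11 with 1 µM inhibitor in the high-intensity set, and of 8.96 and 8.94 with IL-2 alone, 7.32 with 1 µM and 7.11 with 4 µM in the low-intensity set. All inhibitor samples were lower, least so in 1 µM replicate 1, and the log2 change was -1.30 ± 0.20 (SE, adjusted p = 0.000130). Zbtb32, needed for NK cell expansion in infection, changed by -1.32 ± 0.13 (SE, adjusted p = 7.26e-07) and Irf8 by -1.08 ± 0.14 (SE, adjusted p = 2.19e-05). Zeb2, a factor of late NK maturation that macrophages also need, was the 1 factor that rose, at 0.75 ± 0.12 (SE, adjusted p = 0.000196). Ikzf3 (-0.01) and Klf7 (-0.01) were near 0.

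Genes of the growth machinery fell in smaller steps. Of 48 measured ribosome biogenesis genes 31 fell and 0 rose, with a median log2 change of -0.68. Rrp1b, a nucleolar factor, stood at 8.71 and 9.36 against 7.63 in the high-intensity set and 7.28 and 7.44 against 6.04 (1 µM) and 5.73 (4 µM) in the low-intensity set in log2 level. Its samples did not overlap in either set, and the log2 change was -1.44 ± 0.15 (SE, adjusted p = 1.50e-06). Nop58, a core protein of the box C/D particles, changed by -1.38 ± 0.17 (SE, adjusted p = 1.48e-05), Dkc1, the pseudouridine synthase dyskerin, by -1.30 ± 0.17 (SE, adjusted p = 2.43e-05), and Bysl, a factor of small subunit assembly, by -1.15 ± 0.17 (SE, adjusted p = 8.57e-05). Imp3 (0.03) and Polr1c (-0.05) stayed near 0.

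In the list of polyamine, nucleotide and 1-carbon synthesis, 15 of 24 fell and 0 rose, with a median of -0.69. Srm, spermidine synthase and a known Myc target, had log2 levels of 11.08 and 11.36 with IL-2 alone and 9.51 with 1 µM inhibitor in the high-intensity set, and of 10.18 and 10.09 with IL-2 alone, 8.35 with 1 µM and 8.29 with 4 µM in the low-intensity set. The inhibitor samples of both doses stood together well below IL-2. The log2 change of Srm was -1.78 ± 0.16 (SE, adjusted p = 2.06e-07), alike within the high-intensity set (-1.71) and the low-intensity set (-1.82). Mthfd1, of folate metabolism, changed by -1.20 ± 0.21 (SE, adjusted p = 0.000514) and Ctps, which makes CTP, by -1.08 ± 0.16 (SE, adjusted p = 8.06e-05). The count of 15 was 9 on leaving out IL-2 replicate 3 and 7 on leaving out IL-2 replicate 4 or the 4 µM sample.

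Chaperones and translation followed. Of 25 cytosolic and mitochondrial chaperones 13 fell (median -0.54), among them Hspd1, the mitochondrial chaperonin, at -1.03 ± 0.16 (SE, adjusted p = 0.000161) and Hsp90aa1 at -0.67 ± 0.12 (SE, adjusted p = 0.000672). Of 24 chaperones of the endoplasmic reticulum 11 fell (median -0.45), among them Hspa5, which encodes BiP, at -0.90 ± 0.17 (SE, adjusted p = 0.00115). Of 17 translation factors 7 fell (median -0.39), with Eef1e1 at -1.15 ± 0.13 (SE, adjusted p = 3.88e-06) and Eif4a1, the helicase of cap-dependent initiation, at -0.53 ± 0.10 (SE, adjusted p = 0.00183). Of 31 proteasome genes 7 fell (median -0.36), with Psme1, a subunit of the interferon-induced activator, at -0.84 ± 0.15 (SE, adjusted p = 0.000963). None of these 4 lists held a gene that rose. The counts rest in part on single samples: cytosolic and mitochondrial chaperones gave 7 on leaving out IL-2 replicate 4 and 8 on leaving out the 4 µM sample, endoplasmic reticulum chaperones 5 on leaving out IL-2 replicate 3, 6 on leaving out IL-2 replicate 4 or the 4 µM sample and 7 on leaving out 1 µM replicate 2, and the proteasome 3 on leaving out IL-2 replicate 2, 2 on leaving out IL-2 replicate 3, 1 µM replicate 2 or the 4 µM sample and 1 on leaving out IL-2 replicate 4.

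Amino acid genes split: 7 of 24 fell and 1 rose, beside 3.56% and 3.40% of all genes, with a median of -0.23. Wars, the interferon-inducible tryptophanyl-tRNA synthetase, stood at 11.41 and 11.77 against 10.10 in the high-intensity set and 9.47 and 9.65 against 7.34 (1 µM) and 7.48 (4 µM) in the low-intensity set in log2 level, with all inhibitor samples below IL-2, and changed by -1.89 ± 0.16 (SE, adjusted p = 9.57e-08). Slc7a5, the large neutral amino acid transporter that IL-2 raises, changed by -1.41 ± 0.20 (SE, adjusted p = 4.99e-05), and Psat1, of serine synthesis, by -1.26 ± 0.16 (SE, adjusted p = 1.99e-05). Slc7a11, the cystine transporter, went the other way: its log2 levels were 8.07 and 8.52 against 10.31 in the high-intensity set and 6.09 and 6.32 against 7.52 (1 µM) and 8.23 (4 µM) in the low-intensity set, above IL-2 in every inhibitor sample, and its change was 1.85 ± 0.21 (SE, adjusted p = 3.97e-06).

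Metabolic genes were called in both directions, beside 3.56% of all genes that fell and 3.40% that rose. In glycolysis 4 of 21 fell and 2 rose: Pfkp, a phosphofructokinase, fell (-1.20 ± 0.18 SE, adjusted p = 0.000149), as did Slc16a1 (-0.95), Ldha (-0.64) and Pgk1 (-0.54), while the lactate exporter Slc16a3 (0.87) and Egln3 (0.63) rose. In oxidative phosphorylation 2 of 29 fell, Cycs (-0.64) and Atp5g1 (-0.55), and 0 rose. Calls this few, here and in sterol and fatty acid synthesis, are not read as a change of the list. In sterol and fatty acid synthesis Fasn was lower (-0.70) and Scd1, the stearoyl desaturase, higher (0.97 ± 0.14 SE, adjusted p = 5.63e-05) among 23 genes, with 3 falls on leaving out IL-2 replicate 1. The calls of single genes were lost as follows: Ldha without IL-2 replicate 2, IL-2 replicate 3, IL-2 replicate 4 or the 4 µM sample (adjusted p from 0.0539 to 0.136), Pgk1 without IL-2 replicate 2, IL-2 replicate 3, IL-2 replicate 4 or the 4 µM sample (adjusted p from 0.0704 to 0.224), Egln3 without IL-2 replicate 2, IL-2 replicate 3, IL-2 replicate 4, 1 µM replicate 2 or the 4 µM sample (adjusted p from 0.0582 to 0.268), Slc16a3 without 1 µM replicate 2 (adjusted p = 0.0624), Cycs without IL-2 replicate 1, IL-2 replicate 3, 1 µM replicate 1 or 1 µM replicate 2 (adjusted p from 0.0609 to 0.111), Atp5g1 without 1 µM replicate 1 (adjusted p = 0.0511) and Fasn without IL-2 replicate 2, IL-2 replicate 3, IL-2 replicate 4, 1 µM replicate 1, 1 µM replicate 2 or the 4 µM sample (adjusted p from 0.0653 to 0.143).

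**Figure D3:**
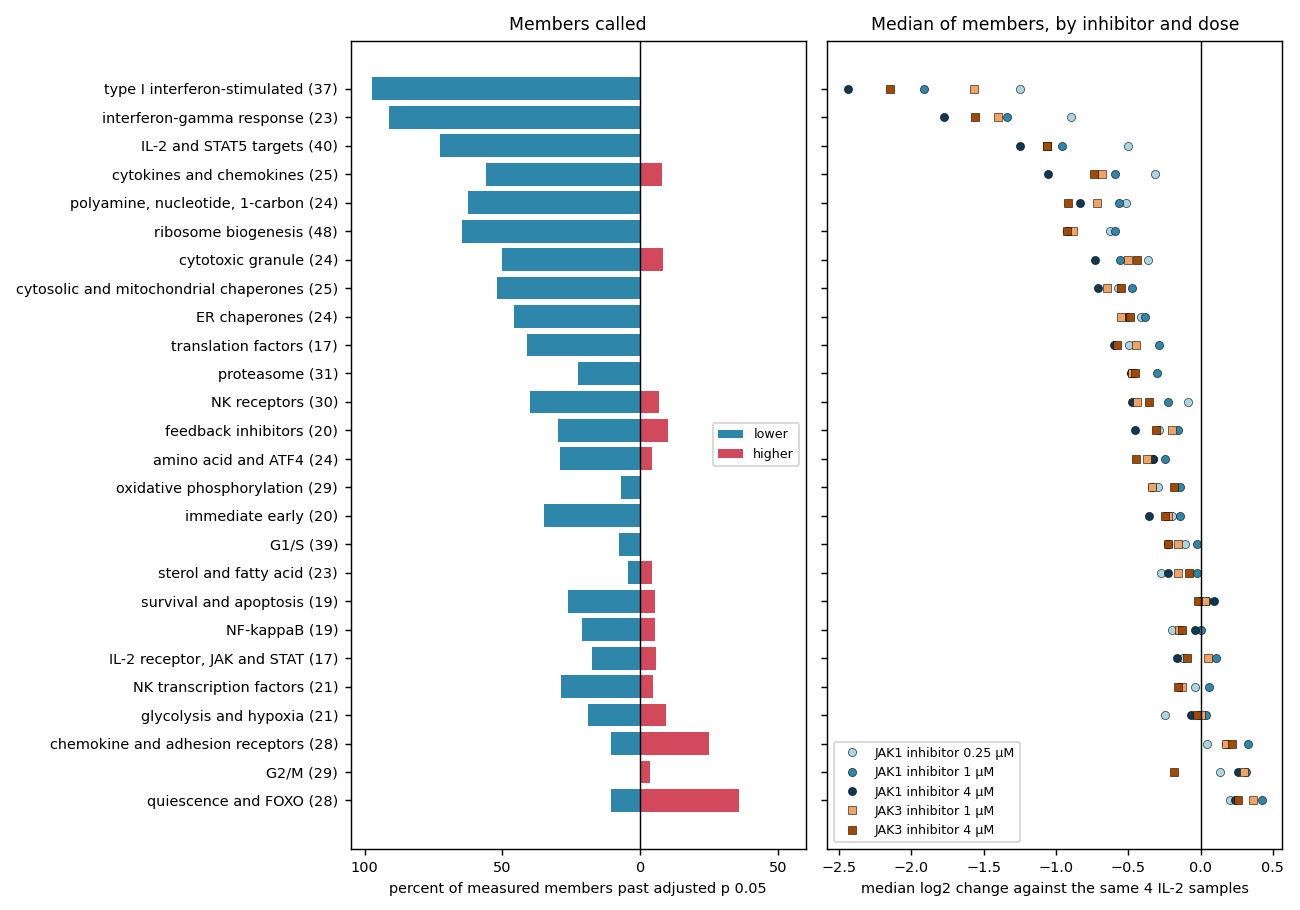
Left, percent of the measured members (number in brackets) of each gene list that passed adjusted p 0.05, lower to the left of 0 and higher to the right; right, the median log2 change of the same members for JAK1 inhibitor 0.25, 1 and 4 µM and JAK3 inhibitor 1 and 4 µM against the same 4 IL-2 samples. Type I interferon genes have the lowest median of the 26 lists at JAK1 inhibitor 0.25, 1 and 4 µM and JAK3 inhibitor 1 and 4 µM, the doses plotted, and 36 of 37 members are called lower at 1 and 4 µM of the JAK1 inhibitor.

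Of 39 genes of the G1/S transition 3 fell, namely Ccnd2, Cdk6 and Fen1 (5 without IL-2 replicate 1), and of 29 genes of G2/M 1 rose, Cenpa, beside 3.56% of all genes that fell and 3.40% that rose. The median log2 change was -0.10 for G1/S and 0.29 for G2/M, whose 29 members were all above 0. The G2/M median was 0.006 within the high-intensity set and 0.45 within the low-intensity set. Cdk6, a partner of the D-type cyclins, had log2 levels of 11.06 and 11.39 with IL-2 alone and 9.78 with 1 µM inhibitor in the high-intensity set, and of 9.68 and 9.93 with IL-2 alone, 8.55 with 1 µM and 8.38 with 4 µM in the low-intensity set. Inhibitor samples were lower by more than a log2 unit in both sets, and the change was -1.39 ± 0.18 (SE, adjusted p = 1.95e-05). The call of Fen1 (-0.57) was lost without IL-2 replicate 4 or the 4 µM sample (adjusted p from 0.0684 to 0.0804), and that of Cenpa (0.61) without IL-2 replicate 1, IL-2 replicate 3, 1 µM replicate 1 or 1 µM replicate 2 (adjusted p from 0.0505 to 0.105). Ccna2 (0.52, adjusted p = 0.263), Cdk1 (0.06) and Birc5 (0.01) did not pass.

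Of 19 survival and apoptosis genes 5 fell and 1 rose, beside 3.56% of all genes that fell and 3.40% that rose. The single rise is not read as a change of the list. Bcl2, the mitochondrial survival protein, had log2 levels of 12.12 and 12.21 with IL-2 alone and 10.87 with 1 µM inhibitor in the high-intensity set, and of 10.69 and 10.71 with IL-2 alone, 8.77 with 1 µM and 8.15 with 4 µM in the low-intensity set. The IL-2 samples agreed within each set, and the 4 µM sample was the lowest. Bcl2 changed by -1.88 ± 0.20 (SE, adjusted p = 1.38e-06) in log2, -1.29 within the high-intensity set and -2.24 within the low-intensity set. Bcl2l14 (-0.91), Bcl2l1 (-0.76), which encodes Bcl-xL, Bid (-0.52) and Casp8 (-0.50) fell as well. Bmf, a death-promoting BH3-only gene, was the 1 member that rose, with log2 levels of 8.49 and 8.68 against 9.12 in the high-intensity set and 6.20 and 6.20 against 7.33 (1 µM) and 7.25 (4 µM) in the low-intensity set and a change of 0.85 ± 0.15 (SE, adjusted p = 0.000688). The call of Bid was lost without IL-2 replicate 2, IL-2 replicate 3, IL-2 replicate 4, 1 µM replicate 1, 1 µM replicate 2 or the 4 µM sample (adjusted p from 0.0758 to 0.224), and that of Casp8 without the 4 µM sample (adjusted p = 0.0826).

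Immediate early genes fell in 7 of 20 cases and none rose: Jun changed by -1.24 ± 0.16 (SE, adjusted p = 2.35e-05), Fosl1 by -1.11 ± 0.18 (SE, adjusted p = 0.000214) and Egr1 by -0.80 ± 0.17 (SE, adjusted p = 0.00277), while Fosb (adjusted p = 1.00) and Ier5 (adjusted p = 1.00) did not pass. Of 19 NF-kappaB targets 4 fell, Tnf, Cd40 (-0.71), Nfkbiz (-0.70) and Icam1 (-0.55), and 1 rose, Tnfaip3. Among all genes 3.56% fell and 3.40% rose. The call of Cd40 was lost without 1 µM replicate 2 (adjusted p = 0.0685), that of Icam1 without IL-2 replicate 2, IL-2 replicate 3, IL-2 replicate 4, 1 µM replicate 1, 1 µM replicate 2 or the 4 µM sample (adjusted p from 0.0917 to 0.166) and that of Tnfaip3 without IL-2 replicate 1, IL-2 replicate 2, IL-2 replicate 4, 1 µM replicate 1, 1 µM replicate 2 or the 4 µM sample (adjusted p from 0.0577 to 0.0996).

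Rises were most frequent in 2 of the lists of response genes. Of 28 measured genes of the quiescence and FOXO list 10 rose and 3 fell (median 0.34), and of 28 chemokine, cytokine and adhesion receptors 7 rose and 3 fell (median 0.26). The 2 lists overlap, with Il7r in both, so their counts are not separate results. Other lists share genes as well, among them Cxcl9, Gzmb, Ccnd2, Tnf and Tnfaip3, and the same holds for their counts. Il7r, the receptor chain for the survival cytokine IL-7 and a FOXO1 target, had log2 levels of 8.57 and 8.94 with IL-2 alone and 10.41 with 1 µM inhibitor in the high-intensity set, and of 6.70 and 6.78 with IL-2 alone, 8.32 with 1 µM and 8.58 with 4 µM in the low-intensity set. Every inhibitor sample was above the IL-2 samples of its set, by similar amounts at both doses. The fitted log2 change was 1.70 ± 0.16 (SE, adjusted p = 3.68e-07). Cxcr4, the receptor that holds cells in bone marrow, changed by 1.13 ± 0.11 (SE, adjusted p = 6.85e-07), S1pr1, which guides exit from lymphoid tissue, by 0.93 ± 0.12 (SE, adjusted p = 1.62e-05), and Cx3cr1, the fractalkine receptor of mature NK cells and monocytes, by 1.23 ± 0.14 (SE, adjusted p = 3.50e-06). The quiescence list also held Klf3 (0.96) and Cdkn1b (0.75), the inhibitor p27 of cyclin-dependent kinases. Gimap4 (-1.09), Gimap7 (-1.07) and Gimap3 (-0.74), GTPases of lymphocytes, were the members that fell, the call of Gimap3 being lost without 1 µM replicate 2 (adjusted p = 0.0807). Il12rb1 (-1.65 ± 0.19 SE, adjusted p = 3.04e-06), Il15ra (-1.0) and Il12rb2 (-0.81), receptor chains for IL-12 and IL-15, fell among the receptors. The rising count of the quiescence list was 6 on leaving out 1 µM replicate 2. Macrophage and neutrophil markers moved with these genes, and their part in the rises was not tested.

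Markers of other cell types rose with these genes. Of 13 measured macrophage and monocyte markers 7 rose and 1 fell (median 1.28), of 15 neutrophil markers 6 rose and 0 fell (median 0.57), of 15 dendritic cell markers 5 rose and 1 fell (median 0.35), and of 14 B cell markers 3 rose and 0 fell (median 0.31). Among all genes 3.40% rose and 3.56% fell. None of the 14 T cell markers passed the test (median 0.14), beside 6.96% of all genes, and 12 of them had a change above 0. That does not show that they stayed the same. Adgre1, which encodes a surface receptor of macrophages, had log2 levels of 7.58 and 7.92 with IL-2 alone and 10.27 with 1 µM inhibitor in the high-intensity set, and of 6.77 and 6.77 with IL-2 alone, 8.56 with 1 µM and 8.71 with 4 µM in the low-intensity set. All inhibitor samples were high and all IL-2 samples low. The log2 change of Adgre1 was 2.14 ± 0.16 (SE, adjusted p = 1.12e-08), and that of Lyz2, the lysozyme of myeloid cells, was 1.79 ± 0.14 (SE, adjusted p = 2.37e-08). Vcan stood at 7.25 and 7.60 against 10.39 in the high-intensity set and 7.29 and 7.13 against 9.98 (1 µM) and 9.73 (4 µM) in the low-intensity set in log2 level and changed by 2.81 ± 0.20 (SE, adjusted p = 7.56e-09), and Mmp8 by 2.33 ± 0.22 (SE, adjusted p = 2.67e-07). Cd209a, a lectin of monocyte-derived dendritic cells, changed by 2.02 ± 0.12 (SE, adjusted p = 8.22e-10) and Flt3 by 1.22 ± 0.20 (SE, adjusted p = 0.000264). Cst3 (0.50), Siglech (0.51) and Ccr7 (0.55) were the other dendritic cell markers that rose, and Bst2 the one that fell. Retnlg (1.24), Csf3r (0.96) and S100a8 (0.93) rose among the neutrophil markers, while Cxcr2 (0.09, adjusted p = 0.976) and Elane (0.36) did not. Fcer2a (0.86), Ebf1 (0.66) and Cr2 (0.58) were the B cell markers that rose, with Bank1 (0.04) and Cd22 (-0.02) near 0. The call of Cr2 was lost without IL-2 replicate 1, IL-2 replicate 2, IL-2 replicate 3, 1 µM replicate 1, 1 µM replicate 2 or the 4 µM sample (adjusted p from 0.0737 to 0.158), and that of Siglech without IL-2 replicate 3, IL-2 replicate 4, 1 µM replicate 2 or the 4 µM sample (adjusted p from 0.0657 to 0.176). The macrophage marker that fell was C1qb (-0.49), a call lost without IL-2 replicate 2, IL-2 replicate 3, IL-2 replicate 4, 1 µM replicate 1 or the 4 µM sample (adjusted p from 0.0672 to 0.240), and without IL-2 replicate 1 there were 2 such markers.

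**Figure D4:**
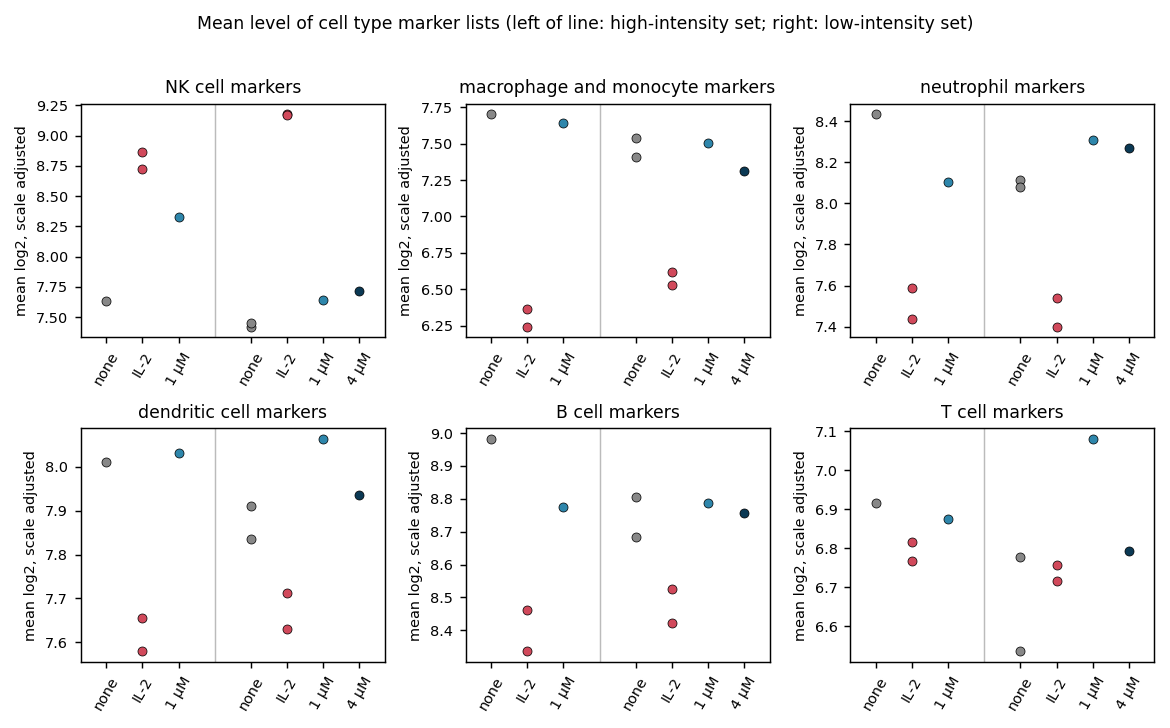
Mean log2 level of 6 cell type marker lists per sample after removal of the scale set term (y axis), for samples without IL-2 (none), with IL-2, and with IL-2 and the JAK1 inhibitor at 1 or 4 µM (x axis); each point is 1 sample and the grey line parts the high-intensity set (left) from the low-intensity set (right). The NK list is lower and the macrophage and neutrophil lists are higher in the inhibitor samples than in the IL-2 samples, and 1 µM replicate 1 (8.32) has the highest NK mean of the inhibitor samples.

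With the scale term removed, the mean log2 level of the macrophage list was 6.24 to 6.62 in the IL-2 samples, 7.31 to 7.64 in the inhibitor samples and 7.41 to 7.70 in untreated cells. The neutrophil list gave 7.40 to 7.59, 8.10 to 8.31 and 8.08 to 8.43 in the same order. For the NK identity list, 10 of 14 measured members fell and 0 rose, with a median log2 change of -1.07. Its mean level was 8.73, 8.87, 9.18 and 9.17 in IL-2 replicates 1 to 4, 8.32 in 1 µM replicate 1, 7.64 in 1 µM replicate 2 and 7.71 in the 4 µM sample. Untreated replicates 2, 3 and 4 stood at 7.63, 7.42 and 7.45. IL-2 alone against untreated cells raised 11 of the 14 members, with a median log2 change of 1.56. A fall of this list is thus a fall of genes that were higher with IL-2, and not by itself a count of NK cells. Of the 3 inhibitor samples, 1 µM replicate 1 was the least low. The marker lists that rose with the inhibitor were lower with IL-2 than in untreated cells. IL-2 alone lowered 7 of 13 macrophage markers and raised 1 (median -1.08). It lowered 9 of 15 neutrophil markers (median -0.62) and 6 of 14 B cell markers (median -0.36), and raised none of these. Of 15 dendritic cell markers it lowered 4 and raised 1 (median -0.23). With no detection measure, these levels do not show whether a marker was present or absent. Klrb1c (-1.15 ± 0.24 SE, adjusted p = 0.00315), which encodes the NK1.1 antigen, fell, whereas Klrd1 (0.24) and Klra8 (-0.11) did not pass. Among the small lists, Tfrc fell in the erythroid list (-0.99), Pf4 rose in the platelet list (0.47), Kit in the basophil and mast cell list (0.75) and Ccr6 in the list of innate lymphoid types 2 and 3 (0.93). Tfrc was the 1 call among 7 measured erythroid markers. The medians of these lists were -0.14, 0.40, -0.005 and -0.17 in the same order, and 6.96% of all genes were called. Single genes like these are not read as a change of a cell type. The calls of these genes were lost for Pf4 without IL-2 replicate 1, IL-2 replicate 3, IL-2 replicate 4, 1 µM replicate 1, 1 µM replicate 2 or the 4 µM sample (adjusted p from 0.0532 to 0.153), for Kit without IL-2 replicate 3, 1 µM replicate 1 or 1 µM replicate 2 (adjusted p from 0.0522 to 0.127) and for Ccr6 without 1 µM replicate 1 or 1 µM replicate 2 (adjusted p from 0.0960 to 0.112). The part of these cell types in the other results was not tested.

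The effect of raising the dose from 1 to 4 µM was examined with the 2 samples at 1 µM and the 1 sample at 4 µM. No gene passed the test (0.00%), 1860 genes had an unadjusted p under 0.05, and the median of all genes was -0.18 in log2, so differences are read relative to that value. Cxcl9 differed by -1.11 ± 0.37 (SE, adjusted p = 0.500), with a 95% interval of -1.89 to -0.34, and Ifng by -0.92 ± 0.27 (SE, adjusted p = 0.500), with -1.50 to -0.35. Gzmb differed by -1.21 ± 0.56 (SE, adjusted p = 0.528), with -2.38 to -0.04. The 95% intervals given here and below hold for single genes and are not adjusted over all genes, so they make no call. Socs1 (-0.21, interval -0.68 to 0.25), Ifit1 (0.11, interval -0.65 to 0.87) and Adgre4 (-0.28, interval -0.94 to 0.38) lay closer to the median of all genes. The 4 µM sample lies in the low-intensity set with 1 µM replicate 2, and within that set Gzmb was 7.22 at 1 µM and 6.89 at 4 µM, while Cxcl9 was 6.24 and 5.37 in log2 level. The fit takes the spread of the other groups for the single sample at 4 µM. Without 1 µM replicate 1 there were 6 calls and without 1 µM replicate 2 there was 1, Ly6i.

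Against JAK1 inhibitor 0.25 µM, the 1 and 4 µM samples differed in 107 genes (0.542%), 43 higher (0.218%) and 64 lower (0.324%). The 5 largest falls were Cxcl9 (-2.97 ± 0.32 SE, adjusted p = 8.97e-05), Gzmb (-2.70 ± 0.45 SE, adjusted p = 0.00371), Ifng (-2.31 ± 0.25 SE, adjusted p = 8.97e-05), Xcl1 (-2.21 ± 0.30 SE, adjusted p = 0.000816) and Oasl2 (-2.01 ± 0.31 SE, adjusted p = 0.00205). The 5 largest rises were Vcan (1.55 ± 0.24 SE, adjusted p = 0.00229), Adgre4 (1.43 ± 0.23 SE, adjusted p = 0.00313), Hpgd (1.36 ± 0.18 SE, adjusted p = 0.000816), Idh1, a cytosolic isocitrate dehydrogenase (1.35 ± 0.20 SE, adjusted p = 0.00172), and Mmp8 (1.28 ± 0.26 SE, adjusted p = 0.0264). The count was 14 without 0.25 µM replicate 1, 22 without 0.25 µM replicate 2, 52 without 1 µM replicate 2 and 59 without the 4 µM sample. Set against the same IL-2 samples, the dose of 0.25 µM gave 412 calls (2.09%). At 0.25 µM the log2 change against IL-2 was -1.36 for Gzmb (adjusted p = 0.114), -0.38 for Bcl2 (adjusted p = 0.566) and 0.13 for Ncr1 (adjusted p = 0.909). At the same dose it was -2.17 for Cxcl10 (adjusted p = 0.000378), -2.58 for Iigp1 (adjusted p = 9.46e-08) and -1.27 for Socs1 (adjusted p = 9.56e-05). The median of the type I interferon list against IL-2 was -1.25 at 0.25 µM, -1.91 at 1 µM and -2.44 at 4 µM, and that of the cytotoxic granule list was -0.37, -0.56 and -0.73. These values share the 4 IL-2 samples. The values at 0.25 and 1 µM cover both sets, whereas the single 4 µM sample lies in the low-intensity set. Falls of the type I interferon list were larger in that set, so dose and set are mixed in the last step. Within the low-intensity set its mean log2 level was 6.96 at 0.25 µM, 6.23 at 1 µM and 5.96 at 4 µM.

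The JAK1 inhibitor was set against the JAK3 inhibitor at 1 and 4 µM, which makes 2 pairs, and the third shared dose, 0.25 µM, was not compared between the inhibitors here. No gene passed the test at 1 µM (0.00%, 167 with an unadjusted p under 0.05) or at 4 µM (0.00%, 532 with an unadjusted p under 0.05), so a further adjustment over the 2 pairs changes no call. Ifit1 at 1 µM had a JAK1 minus JAK3 log2 difference of -1.63 ± 0.29 (SE, adjusted p = 0.364), 95% interval -2.24 to -1.03. At 4 µM the difference of Ifit1 was -0.51, with an interval of -1.26 to 0.23. For Oasl2 it was -1.32 at 1 µM (interval -1.99 to -0.64) and -0.68 at 4 µM (interval -1.52 to 0.15). For Gzmb the difference was 1.47 at 1 µM (interval 0.54 to 2.41, adjusted p = 1.00) and 0.10 at 4 µM (interval -1.04 to 1.25). Ncr1 differed by 0.92 at 1 µM (interval 0.42 to 1.42) and -0.13 at 4 µM (interval -0.75 to 0.48). Socs1 differed by 0.25 at both doses, with intervals of -0.13 to 0.62 and -0.21 to 0.70. The median difference of the type I interferon list was -0.47 at 1 µM and -0.42 at 4 µM, beside 0.06 and -0.06 for all genes. The median of the cytotoxic granule list was 0.20 and -0.04, and that of ribosome biogenesis 0.23 and 0.01. A p that misses the threshold does not show that the inhibitors act alike, and the intervals of Ifit1, Oasl2 and Gzmb reach past 1 log2 unit at both doses. At 1 µM Ifit1 had the lowest difference of the type I interferon list and Gzmb the highest of the cytotoxic granule list. Their intervals are not adjusted over genes, so they do not establish a difference between the inhibitors. Fits that left out 1 of these samples left a group of 1 sample. Without JAK1 inhibitor 1 µM replicate 2, Klrb1c differed by 1.77 and Ncr1 by 1.48 in log2 at 1 µM. Without JAK3 inhibitor 4 µM replicate 2, each inhibitor had 1 sample at 4 µM. JAK3 inhibitor 4 µM replicate 1 had a lower mean than replicate 2 in the G2/M list (5.56 against 6.84) and the neutrophil list (7.56 against 8.32). The NK identity (7.80 against 7.86) and macrophage lists (7.57 against 7.53) were close. Values at 4 µM rest in part on that sample.

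Against untreated cells, which had no IL-2, the 1 and 4 µM samples differed in no gene that passed the test (0.00%), with 888 genes at an unadjusted p under 0.05 and a median of 0.04. Ifit1 had untreated log2 levels of 8.44 in the high-intensity set and 5.85 and 5.81 in the low-intensity set, above the inhibitor samples of both sets, and differed by -1.32 ± 0.23 (SE, adjusted p = 0.261), interval -1.81 to -0.84. Rtp4 (-1.36, interval -1.97 to -0.75), Ifit3 (-1.12, interval -1.80 to -0.43) and Oasl2 (-1.0, interval -1.57 to -0.43) had log2 differences in the same direction. Gzmb had untreated levels of 9.03 in the high-intensity set and 5.88 and 6.80 in the low-intensity set, and the inhibitor samples differed by 1.12 in log2, interval 0.29 to 1.94. Cxcl9 (0.03, interval -0.57 to 0.62), Iigp1 (-0.02, interval -0.40 to 0.35), Il7r (-0.15, interval -0.51 to 0.21) and Clec4a3 (0.04, interval -0.41 to 0.50) had log2 differences closer to 0. Rtp4 had the lowest difference of the type I interferon list and Gzmb the highest of the cytotoxic granule list, and these intervals are not adjusted over genes. The median of the type I interferon list was -0.28, that of the cytotoxic granule list 0.20 and that of the NK identity list 0.37. Differences were above 0 in 14 of 14 NK identity genes, 36 of 40 IL-2 and STAT5 targets (median 0.25) and 44 of 48 ribosome biogenesis genes (median 0.17). They were below 0 in 32 of 37 type I interferon genes. The absence of calls thus does not show that inhibited and untreated cells were alike. Without untreated replicate 2, the untreated sample with no labelled culture time, there were 5 calls, all in olfactory receptor genes. In that fit 3872 genes had an unadjusted p under 0.05. IL-2 alone against untreated cells changed 1775 genes (8.99%), 1271 higher (6.43%) and 504 lower (2.55%).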

How the data were processed

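RNA of 19 samples of mouse splenic NK cells was hybridised to Affymetrix Mouse Gene 1.0 ST arrays. The deposited table holds the authors' intensity values per probe set on a linear scale, produced by RMA with Affymetrix Power Tools per the submitters' processing notes. The version and the reason for the 2 value scales are not given in the sources used here. Intensities were turned to log2. Of 24922 probe sets, 21425 carry 1 gene symbol in the platform annotation, 1399 carry several and 2098 are not listed in it. The probe set with the highest mean stood for each of 19752 genes (921 had several). RefSeq entries were matched for 21347 probe sets, and no symbol needed an update.

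Samples were grouped by title and assigned to 2 scale sets by their median log2 intensity, above or below 6.6. The fit was limma 3.58.1 (lmFit and eBayes with an intensity trend) in R 4.3.3 with a mean per group and a scale set term over all 19 samples, and the threshold was an adjusted p of 0.05. The JAK1 samples at 1 and 4 µM formed 1 group, except in the comparisons between doses and with the JAK3 inhibitor, where each dose was a group. Tables and figures used Python 3.11.15, pandas 2.3.3, numpy 2.4.6 and matplotlib 3.10.9. The fit was tested on simulated data. Intensities depend on probe affinity, so levels are compared between samples and not between genes, and no detection measure was used.

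The members and the gene lists were chosen with earlier results of these data known. Of 734 entries in 26 lists of response genes 685 were matched, and of 130 entries in 10 marker lists 115 were. Lists share members, so their counts are not separate results. Named were the 12 largest falls and rises past the threshold (predicted genes passed over), up to 4 members of each list with the smallest p and up to 2 with the largest, a fixed set of IL-2 pathway genes, and up to 5 genes in each direction of the other comparisons. Further members were named after their values were seen, where a list held 5 or fewer calls in a direction or a role was described. Some genes of the fixed set are not analysed here. Alternatives tried were other normalizations, filters and designs and leaving out each sample.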

Additional observations from a re-analysis of the deposited data

Results flagged for a closer look

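In the group of 4 IL-2 samples, 1 sample stood apart from the other 3 in 5 of the 172 named genes, on log2 levels with the scale set term removed. A gap this wide arises by chance in about 1 in 20 groups. Ifit1 was 8.78 in IL-2 replicate 3 and 7.75 to 7.89 in the others. Il15ra was 7.37 in replicate 3 and 6.91 to 6.95 in the others. Elane was 7.07 in replicate 3 and 7.83 to 7.98 in the others. Tnf was 7.60 in replicate 1 and 7.98 to 8.02 in the others, and Atp5g1 was 9.58 in replicate 4 and 9.69 to 9.70 in the others. In Ifit1 each of the 4 IL-2 samples stayed above the inhibitor samples of its set.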

How the results depend on the processing

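The JAK1 inhibitor at 1 and 4 µM against IL-2 gave 1375 genes. This count was 2307 after quantile normalization, 723 with a replicate block, 594 within the low-intensity set, 0 within the high-intensity set (limma, 1 residual degree of freedom, 994 at an unadjusted p under 0.05), 15 with no scale set term (all falls), 745 for 4 µM alone, and 957 to 1426 on leaving out 1 sample. The share of falls moved from 51.1% to 31.8% with the block. Against 0.25 µM the count of 107 was 463 with the groups compared fitted alone, 443 after quantile normalization, 273 with a replicate block, 21 within the low-intensity set, 0 within the high-intensity set, 0 with no scale set term, and 14 to 92 on leaving out 1 sample. For 4 against 1 µM the count of 0 was 1 with samples centred on their median (C1s1) and 1 to 6 on leaving out 1 sample. For JAK1 against JAK3 the count of 0 at 1 µM was 84 with the groups compared fitted alone, 1 with a replicate block (Ifit1) and 0 to 2 on leaving out 1 sample, and at 4 µM it was 1 with the groups compared fitted alone (Slc15a2) and 0 to 27 on leaving out 1 sample. Against untreated cells the count of 0 was 3 with the groups compared fitted alone (Ifit1, Ifit3 and Rtp4) and 0 to 5 on leaving out 1 sample. The cause of these moves was not tested, except that the sets taken alone hold fewer samples. Without the scale set term the median log2 change of all genes was -0.26, and list medians there are read relative to it. No named gene reversed its direction under any alternative while called. No label tells what same-numbered samples share. The difference between replicates 1 and 2 with IL-2 alone and that at 1 µM had a correlation of -0.447 over genes. The IL-2 samples of that check lie in 1 set and the 1 µM samples in different sets. It therefore cannot show whether the numbers pair samples, and the block stands as an alternative only. Signal over background was not measured here, so a difference in dim genes cannot be told from a lack of signal.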

Other observations

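The series also holds 1 sample with the JAK1 inhibitor at 0.0625 µM and IL-2, in the low-intensity set, which enters no comparison here. Its values are set beside the single samples of the same set at 0.25, 1 and 4 µM as a description. Socs1 had log2 levels of 8.50 at 0.0625 µM, 8.05 at 0.25 µM, 6.70 at 1 µM and 6.56 at 4 µM, beside 9.15 and 9.39 with IL-2 alone. Iigp1, the interferon-induced GTPase, had 5.57 at 0.0625 µM, 4.73 at 0.25 µM, 4.26 at 1 µM and 3.93 at 4 µM, beside 7.49 and 7.31. Gzmb had 11.43 at 0.0625 µM, 10.28 at 0.25 µM, 7.22 at 1 µM and 6.89 at 4 µM, beside 12.17 and 12.03, and Ncr1 had 10.53 at 0.0625 µM, 10.51 at 0.25 µM, 8.60 at 1 µM and 8.16 at 4 µM, beside 10.46 and 10.41. Il7r had 6.78 at 0.0625 µM, 7.75 at 0.25 µM, 8.32 at 1 µM and 8.58 at 4 µM, beside 6.70 and 6.78, and Adgre4 had 4.41 at 0.0625 µM, 5.62 at 0.25 µM, 6.97 at 1 µM and 6.71 at 4 µM, beside 3.97 and 4.39. Bcl2 had 10.71 at 0.0625 µM, 10.34 at 0.25 µM, 8.77 at 1 µM and 8.15 at 4 µM, beside 10.69 and 10.71. These differences between doses were not tested.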
